A study of Mus musculus with 4 samples.

Results

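The genes described are 10 endothelial surface and junction genes, *Pecam1*, *Cdh5*, *Emcn*, *Tie1*, *Tek*, *Kdr*, *Flt1*, *Vwf*, *Cldn5* and *Eng*, taken by symbol from a table of 48587 genes. All 10 were in the table, had counts in every library and were among the 18916 genes tested. The table comes from mRNA-seq of primary mouse vascular smooth muscle cells (VSMCs), grown out from the descending aorta of young adult C57BL/6J mice after enzymatic removal of the adventitia and scraping of the endothelium. The cells were transduced with a lentivirus that carried either a control hairpin against a plant microRNA sequence (shCTR) or a hairpin against *Mettl14* (shMettl14). The groups thus share the method of isolation, lentiviral transduction and the growth medium, but not the hairpin. Each group has 2 libraries, which carry the letters A and B. The labels do not say whether a letter marks a shared culture or animal, whether animals were pooled, or whether the libraries of a group came from separate cultures, so a p-value measures only the spread between these libraries. The study used mice of both sexes, and the sources name no restriction of the vector to a cell type.

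Totals lay between 114343653 and 124815868 counts per library, and a floor of 3 counts came to at most 0.0262 CPM (counts scaled to a common effective library size), a floor that covers counting error only. *Mettl14*, the target, was at 18.05 and 19.9 CPM in shCTR A and B and at 4.60 and 4.37 CPM in shMettl14 A and B. It was lower in both shMettl14 libraries than in both shCTR libraries, at 23.6% of the mean shCTR level. edgeR's quasi-likelihood test put the log2 fold change at −2.08 ± 0.25 (standard error), with an unadjusted p of 0.00039 and an adjusted p of 1.0, whereas DESeq2's Wald test gave an adjusted p of 3.0e-07.

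Endothelial cells line the lumen of vessels and are held together by adherens junctions, built on VE-cadherin, and by tight junctions, built on claudins. They read vascular endothelial growth factor through receptor tyrosine kinases of the VEGFR family and angiopoietins through the TIE family. In the aorta they lie directly on the smooth muscle of the media, which does not as a rule use these genes at high levels, and the members are therefore common markers for telling the layers of the vessel apart. Several of them are not restricted to endothelium: *Pecam1* is also carried by leukocytes and platelets, *Vwf* by megakaryocytes and platelets, and *Eng* by activated mesenchymal cells.

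Transcripts of 5 of the endothelial members were among the more abundant ones in the cells labelled VSMC. *Emcn* ranked 97 of 48587 genes by mean CPM, *Cdh5* 190, *Pecam1* 211 and *Eng* 425, and *Tie1* ranked 1234. These 5 genes were at or above the percentile 93.5 of the tested genes. *Flt1* was at the percentile 83.0, *Vwf* at 59.9, *Tek* at 49.3, *Kdr* at 47.2 and *Cldn5* at 30.7. The members together made up 0.211% of the counts in shCTR A, 0.429% in shCTR B, 0.209% in shMettl14 A and 0.295% in shMettl14 B. In bulk RNA, a change in the number of cells of a type and a change in RNA per cell cannot be told apart.

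**Figure D1:**
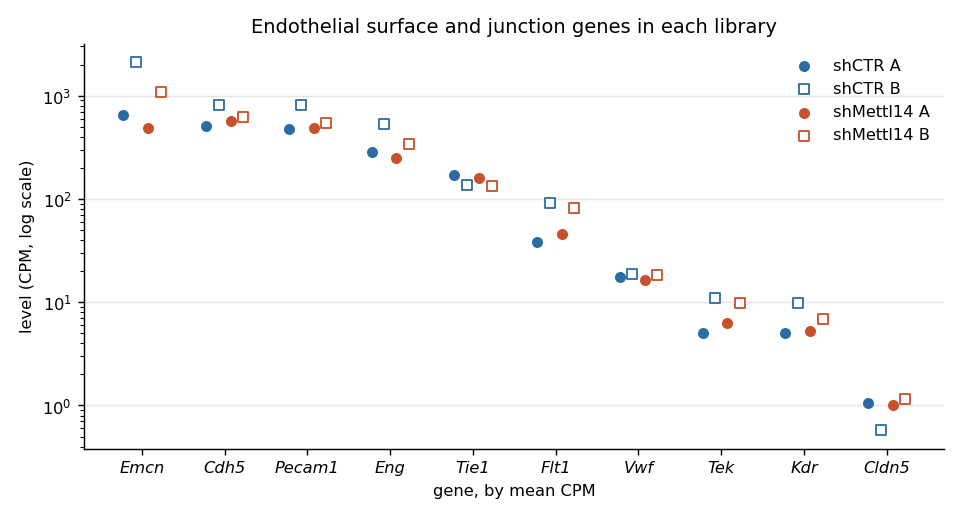
Level of each of the 10 genes (x axis, ordered by mean CPM) in each library (y axis, CPM on a log scale); blue is shCTR, red is shMettl14, filled circles are A and open squares are B. *Emcn* spans from 484 to 2099 CPM, whereas *Cldn5* stays near 1 CPM, and the B libraries lie above the A libraries for 8 of the 10 genes.

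*Cdh5* encodes VE-cadherin, the cadherin of endothelial adherens junctions (chromosome 8 of GRCm38, 104101625 to 104144511, plus strand, ENSMUSG00000031871). Its level was 508 CPM in shCTR A, 818 in shCTR B, 566 in shMettl14 A and 617 in shMettl14 B. The shCTR B library stood above the other three, and the shMettl14 libraries lay between the shCTR libraries. *Pecam1* encodes CD31, an immunoglobulin-family adhesion protein at endothelial contacts (chromosome 11, 106654217 to 106750628, minus strand, ENSMUSG00000020717). It showed the same order, with 477, 820.2, 485 and 545 CPM in shCTR A, shCTR B, shMettl14 A and shMettl14 B. The ratio of *Pecam1* to *Cdh5* CPM varied little, from 0.857 to 1.0 across libraries.

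*Cldn5*, the claudin of endothelial tight junctions (chromosome 16, 18776847 to 18778262, plus strand, ENSMUSG00000041378), was the lowest member. It had 121 and 62 counts in shCTR A and B and 120 and 149 counts in shMettl14 A and B, or 1.07, 0.574, 1.01 and 1.15 CPM. The shCTR B library, the highest for *Cdh5* and *Pecam1*, was the lowest for *Cldn5*. Compared per kilobase of exon, the mean level of *Emcn* was 297 times that of *Cldn5*. This ratio depends on the length used. With all exons of a gene, *Emcn* had a mean of 199 CPM per kilobase, and with the length of a RefSeq transcript 416. *Cldn5* had 0.670 with either length.

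*Emcn* encodes endomucin, a mucin-like sialoglycoprotein of venous and capillary endothelium (chromosome 3, 137341067 to 137432185, plus strand, ENSMUSG00000054690). It had the highest mean level of the members and varied most between libraries, with 649 CPM in shCTR A, 2099 in shCTR B, 484 in shMettl14 A and 1077 in shMettl14 B. Both B libraries were above both A libraries, and the shMettl14 library was below the shCTR library of the same letter. *Emcn* made up 30.1% and 46.2% of the members' counts in shCTR A and B and 24% and 38.1% in shMettl14 A and B. *Eng* encodes endoglin, a co-receptor for bone morphogenetic proteins and TGF-β (chromosome 2, 32646595 to 32682669, plus strand, ENSMUSG00000026814), and 1.51% of its exon bases overlap *Fpgs* on the other strand, where reads cannot be assigned unless the counting used strand. Its levels were 284, 537, 247 and 337 CPM in shCTR A, shCTR B, shMettl14 A and shMettl14 B. They followed the pattern of *Emcn* with smaller distances. *Vwf* encodes von Willebrand factor, which endothelial cells store and release to bind platelets (chromosome 6, 125546774 to 125686679, plus strand, ENSMUSG00000001930). It was nearly level across the libraries, with 17.5, 18.9, 16.4 and 18.5 CPM in the same order.

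Among the VEGF receptors, *Flt1* (VEGFR1, which binds VEGF tightly and also exists as a soluble form that the gene counts do not separate; chromosome 5, 147561604 to 147726011, minus strand, ENSMUSG00000029648) was at 38.6 CPM in shCTR A, 92.1 in shCTR B, 45.3 in shMettl14 A and 82.1 in shMettl14 B. *Kdr* (VEGFR2, the main signalling receptor for VEGF in endothelium; chromosome 5, 75932827 to 75978458, minus strand, ENSMUSG00000062960) was at 5.06, 9.75, 5.21 and 6.87 CPM in the same order. Both genes were higher in both B libraries than in both A libraries, and *Flt1* exceeded *Kdr* in CPM by 7.63 times in shCTR A and by 11.9 times in shMettl14 B, the lowest and highest of the 4 ratios. Compared per kilobase of exon, the mean level was 4.78 CPM for *Flt1* and 0.745 for *Kdr*.

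Of the TIE receptors, *Tek* (TIE2, the receptor for angiopoietins; chromosome 4, 94739289 to 94874976, plus strand, ENSMUSG00000006386) was at 5.04 CPM in shCTR A, 10.9 in shCTR B, 6.34 in shMettl14 A and 9.85 in shMettl14 B. *Tie1* (an orphan receptor that pairs with TIE2; chromosome 4, 118471191 to 118490061, minus strand, ENSMUSG00000033191) was at 171, 136, 158 and 134 CPM in the same order. *Tie1* was thus higher in both A libraries than in both B libraries, the reverse of *Tek*. Per kilobase of exon the mean level was 30.5 CPM for *Tie1* and 1.71 for *Tek*.

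Ordered by mean CPM per kilobase of exon (the union of GENCODE M21 exons), the members ran from *Emcn* (199) over *Cdh5* (149), *Pecam1* (93.4), *Eng* (86.8), *Tie1* (30.5), *Flt1* (4.78), *Tek* (1.71), *Vwf* (1.11) and *Kdr* (0.745) to *Cldn5* (0.670). The ranges over libraries did not overlap between *Eng* and *Tie1*, between *Tie1* and *Flt1* or between *Flt1* and *Tek*, and those of the other neighbours overlapped. All genes were read in the same libraries, and within them *Cdh5* was above *Pecam1* in 4 of 4 libraries, by 1.48 to 1.73 times, and *Vwf* above *Kdr* in 4 of 4, by 1.09 to 1.94 times. The order of the remaining neighbours changed between libraries. *Emcn* was above *Cdh5* in 2 of 4, *Pecam1* above *Eng* in 3, *Tek* above *Vwf* in 3 and *Kdr* above *Cldn5* in 1. With the length of a RefSeq transcript in place of the exon union, *Cdh5* and *Pecam1* changed places, as did *Tek* and *Vwf*.

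The RefSeq promoter table on GRCm38.p6 held 7 of the 10 members and had no entry for *Pecam1*, *Cdh5* and *Vwf*. The 250 bases before the start site are shown for *Emcn* and *Eng*, among the most abundant members, for *Flt1*, one of the members that were higher in B, and for *Cldn5*, the least abundant, so that a reader can set the windows beside the levels. Capitals mark GGAA, the core of sites bound by ETS-family factors such as ERG and FLI1, or its reverse complement TTCC. The windows are chr3:137340828-137341077 (plus strand) for *Emcn*, chr2:32646345-32646594 (plus) for *Eng*, chr5:147726012-147726261 (minus) for *Flt1* and chr16:18776597-18776846 (plus) for *Cldn5*. The last 11 bases of the *Emcn* window lie in an exon of the gene in GENCODE M21.
Emcn: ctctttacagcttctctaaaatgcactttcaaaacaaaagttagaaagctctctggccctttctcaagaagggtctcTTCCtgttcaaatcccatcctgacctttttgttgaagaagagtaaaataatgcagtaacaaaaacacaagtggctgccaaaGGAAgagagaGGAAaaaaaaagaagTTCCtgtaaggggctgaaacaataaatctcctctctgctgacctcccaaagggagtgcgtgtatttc
Eng: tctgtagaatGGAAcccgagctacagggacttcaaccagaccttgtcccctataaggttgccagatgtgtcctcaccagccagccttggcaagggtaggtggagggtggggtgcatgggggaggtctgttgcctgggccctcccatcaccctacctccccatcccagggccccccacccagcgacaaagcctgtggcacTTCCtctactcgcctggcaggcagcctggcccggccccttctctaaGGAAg
Flt1: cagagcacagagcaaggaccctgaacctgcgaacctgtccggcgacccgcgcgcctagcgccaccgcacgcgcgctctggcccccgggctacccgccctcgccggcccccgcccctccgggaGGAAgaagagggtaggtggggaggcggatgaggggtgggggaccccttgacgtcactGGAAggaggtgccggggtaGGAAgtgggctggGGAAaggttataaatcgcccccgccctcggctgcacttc
Cldn5: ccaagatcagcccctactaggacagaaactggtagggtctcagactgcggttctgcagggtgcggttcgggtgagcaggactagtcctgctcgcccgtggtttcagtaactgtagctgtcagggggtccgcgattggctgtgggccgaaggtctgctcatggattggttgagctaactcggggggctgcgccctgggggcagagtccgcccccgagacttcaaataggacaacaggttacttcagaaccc

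The *Emcn* window held 4 matches to GGAA on either strand, that of *Eng* 3, that of *Flt1* 4 and that of *Cldn5* 0. Of the windows not printed, that of *Tie1* held 7, that of *Kdr* 4 and that of *Tek* 2. In GENCODE M21, 212 of the 250 bases of the *Tie1* window and 3 of the *Kdr* window lie in exons of the gene itself. At least 1 match was found in 93.4% of 27025 RefSeq windows of the same length, with a median of 3, so that 6 of 7 members with a match is close to the share of all promoters. The longer word AGGAAG was in the windows of *Emcn*, *Eng*, *Flt1* and *Tie1* and in 29.2% of all windows. These matches are descriptions of the letters in the windows.

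The label of the cells was compared with markers of smooth muscle and of other cell types. The smooth muscle list was high in every library, with a summed level of 7156 to 9972 CPM over 10 genes and all 10 genes tested. *Acta2*, α-smooth muscle actin, was at 3547, 2799, 2171 and 2073 CPM in shCTR A, shCTR B, shMettl14 A and shMettl14 B. *Cald1* (caldesmon) had a mean of 2414 CPM and *Tagln* (transgelin) a mean of 2163 CPM. Of the exon bases of *Tagln*, 67.9% overlap other genes on the other strand, where reads cannot be assigned unless the counting used strand. The endothelial members summed to 2155 CPM in shCTR A, 4543 in shCTR B, 2015 in shMettl14 A and 2829 in shMettl14 B. Markers of both smooth muscle and endothelium were thus present in every library. Per kilobase of exon, *Cdh5* had a mean of 149 CPM, against 1206 for *Acta2*, 1088 for *Tagln* and 24.6 for *Myh11*, the myosin heavy chain of contractile smooth muscle. *Myh11* was named after its values were seen, and *Cald1* is not part of this comparison per kilobase.

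**Figure D2:**
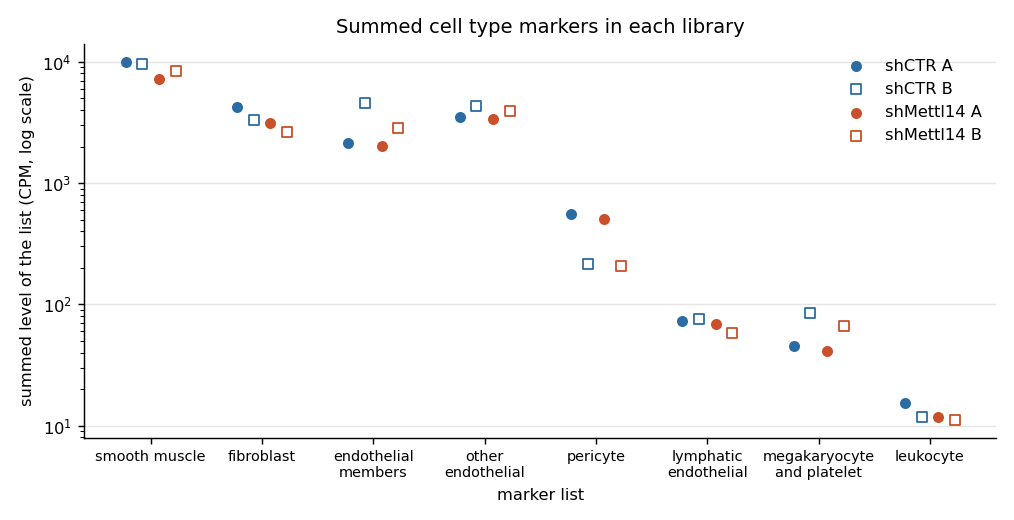
Summed level (y axis, CPM on a log scale) of each cell type marker list (x axis) in each library; blue is shCTR, red is shMettl14, filled circles are A and open squares are B. The endothelial members lie between 2015 and 4543 CPM, the smooth muscle list between 7156 and 9972 CPM and the leukocyte list between 11.2 and 15.4 CPM.

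Other blood and vessel cell types that carry some of the members were measured beside them. The 9 leukocyte markers summed to 11.2 to 15.4 CPM, and *Ptprc* (CD45), their defining marker, was at 0.819 and 0.241 CPM in shCTR A and B and at 0.514 and 0.431 CPM in shMettl14 A and B. *Lyz2* (lysozyme), *Cd68* and *Csf1r* had means of 4.80, 4.07 and 2.75 CPM. Of the exon bases of *Csf1r*, 15.1% overlap another gene on the other strand. The 7 megakaryocyte and platelet markers summed to 41.4 to 85.2 CPM, led by *Itgb3* (integrin β3, mean 50.7 CPM), which other cells also carry. *Itga2b*, the defining partner of *Itgb3* in platelets, had a mean of 3.24 CPM, and *Gp1bb* (glycoprotein Ib) a mean of 4.05 CPM. Exons of *Gp1bb* overlap those of *Sept5* and *Gm49601* on the same strand, where strand cannot assign reads to 1 gene. *Pecam1*, at 477 CPM or more, was far above both *Ptprc* and *Itga2b* in every library. Of the lymphatic endothelial markers, which summed to 58.1 to 75.4 CPM, *Pdpn* (podoplanin) had a mean of 42.2 CPM, *Flt4* (VEGFR3) 24.2 and *Lyve1* 1.91, and *Prox1*, the defining factor of that lineage, had at most 73 counts in a library. The 8 fibroblast markers, led by *Col1a1* (collagen I), *Gsn* (gelsolin) and *Cd248* with means of 2394, 617 and 191 CPM, summed to 2625 to 4209 CPM.

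Most members differed between the libraries named A and those named B. Both B libraries were above both A libraries for 8 members, *Pecam1*, *Cdh5*, *Emcn*, *Tek*, *Kdr*, *Flt1*, *Vwf* and *Eng*, a pattern shown by 27.2% of the genes tested. Both A libraries were above both B libraries for 1 member, *Tie1*, against 28.8% of the genes tested, and *Cldn5* overlapped. The letters are names of replicates, so no test was made. The B over A fold was largest for *Emcn*, at 3.24 with shCTR and 2.23 with shMettl14, followed by *Flt1* at 2.39 and 1.81 and *Tek* at 2.17 and 1.55. It was 1.08 and 1.13 for *Vwf*, and 0.796 and 0.850 for *Tie1*. The summed level of the members was 2.11 times higher in B than in A with shCTR and 1.40 times with shMettl14, and without *Emcn* these folds were 1.62 and 1.14. The median difference between the letters over the members was 0.57 on the log2 scale, against −0.015 over all genes tested.

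**Figure D3:**
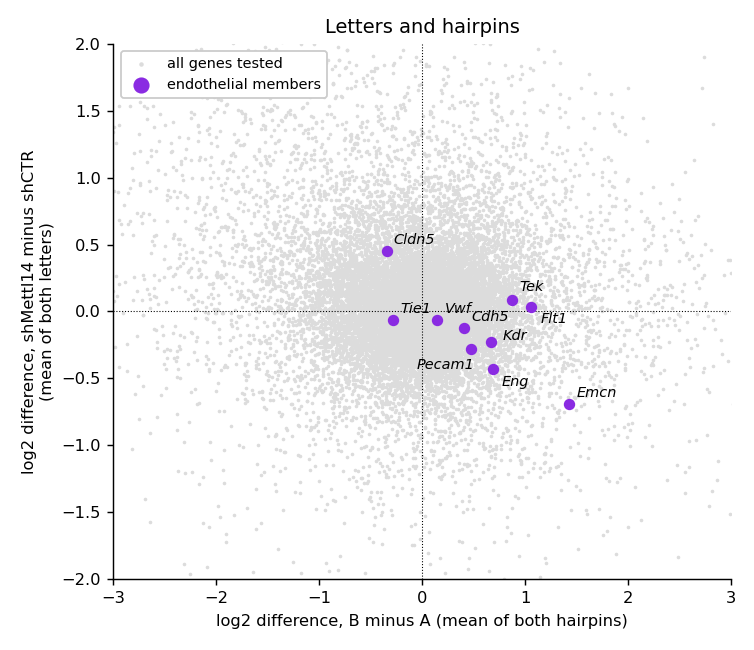
Log2 difference between the letters (x axis, B minus A, mean of both hairpins) and between the hairpins (y axis, shMettl14 minus shCTR, mean of both letters) for each member (purple) and for the genes tested (grey), of which 468 lie outside the axes. *Emcn* lies furthest to the right, at 1.42 on the x axis and −0.69 on the y axis, and *Tie1* and *Cldn5* lie left of 0.

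Levels of single markers of other cell types also differed between the letters, and their part in the members' difference was not tested. The pericyte list summed to 556 and 502 CPM in shCTR A and shMettl14 A and to 217 and 208 CPM in shCTR B and shMettl14 B, and was led in the A libraries by *Rgs5*, a regulator of G-protein signalling, at 286 and 270.0 CPM in the A libraries and 40.5 and 48.8 CPM in the B libraries. The other leading genes of this list were *Cspg4* (NG2), with a mean of 175 CPM and higher in both A libraries, and *Notch3*, with a mean of 32.7 CPM and higher in both B libraries. Of the 5 pericyte markers tested, 2 were higher in both A libraries and 3 in both B libraries, with a median difference of 0.89 on the log2 scale (B minus A), so that the sum and the tally went opposite ways. *Myh11* was likewise higher in A, at 338 and 233 CPM, than in B, at 101 and 75 CPM. Of the 10 smooth muscle markers, 4 were higher in both A libraries and 3 in both B libraries, close to the 28.8% and 27.2% of all genes tested. The other endothelial genes were higher in both B libraries for 14 of 28 tested and in both A libraries for 7, against the same 27.2% and 28.8%. *Nos3*, the endothelial nitric oxide synthase, named after its values were seen, was at 7.76 and 6.05 CPM in the A libraries and at 36.0 and 32.0 CPM in the B libraries. It is 1 gene of a list in which 7 of the 28 tested went the other way. Of its exon bases, 32.3% overlap other genes on the other strand, where reads cannot be assigned unless the counting used strand.

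The comparison of shMettl14 with shCTR asks whether the loss of an m6A writer subunit changed these transcripts. With edgeR's quasi-likelihood test, 0 of the 10 members had an adjusted p under 0.05, as was true of 0% of the 18916 genes tested. Without adjustment, 0 members had a p under 0.05. Of the genes tested, 1.01% were lower and 0.656% higher with shMettl14, so that 0 of 10 is close to these shares. This fit had no term for the letter. In a fit with such a term, given among the alternatives at the end, 2 members, *Emcn* and *Eng*, had an unadjusted p under 0.05. In that fit 0 members had an adjusted p under 0.05. DESeq2's Wald test gave 0 members by adjusted and 0 by unadjusted p, and called 5 of all genes. The 95% interval of the log2 fold change included 0 for all 10 members, and for 7 of them the fold change was smaller than its standard error. With 2 libraries in each group, the smallest two-sided p of an exact permutation test is 0.333.

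*Emcn* had the largest difference. Its mean was 1374 ± 1026 CPM with shCTR and 780.4 ± 419.6 CPM with shMettl14 (SD, n = 2 libraries each), or 56.8% of the shCTR level. The log2 fold change was −0.82 (standard error 0.66, 95% interval −2.53 to 0.89, adjusted p = 1.0 and unadjusted p = 0.27 from edgeR), and the ratios within letters were −0.42 in A and −0.96 in B. *Emcn* was lower with shMettl14 in each letter, by less than the distance between the letters. *Eng* followed, with 410.4 ± 179 and 292 ± 63.5 CPM and a log2 fold change of −0.49 (standard error 0.37, 95% interval −1.44 to 0.46), with ratios of −0.20 in A and −0.67 in B.

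The junction genes did not pass the test in either direction. *Pecam1* had 649 ± 243 CPM with shCTR and 515 ± 42.0 with shMettl14, a log2 fold change of −0.33 (95% interval −1.13 to 0.46), and its ratio was 0.025 within A but −0.59 within B. *Cdh5* had 663 ± 219 and 592 ± 35.4 CPM, a log2 fold change of −0.16 (95% interval −0.89 to 0.57), and its ratio was 0.16 within A but −0.41 within B. *Cldn5* was the member with the largest positive value, 0.39 (95% interval −0.86 to 1.65), from 0.820 ± 0.347 to 1.08 ± 0.0955 CPM, and its ratios were −0.075 in A and 0.98 in B. Without shCTR B, the library with 62 counts, the log2 fold change of *Cldn5* was 0.014.

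Of the receptors and *Vwf*, *Tie1* and *Vwf* had the narrowest intervals. The log2 fold change was −0.070 for *Tie1* (95% interval −0.64 to 0.50) and −0.061 for *Vwf* (−0.63 to 0.51). For these genes a rise or fall of more than 0.64 on the log2 scale lay outside the interval. *Flt1* had a log2 fold change of −0.037 (95% interval −1.35 to 1.27), *Tek* of 0.018 (−1.21 to 1.25) and *Kdr* of −0.29 (−1.38 to 0.79). The intervals of these 3 genes hold both a rise and a fall of 0.79 on the log2 scale. *Flt1* had 65.4 ± 37.9 CPM with shCTR and 63.7 ± 26 with shMettl14, with ratios of 0.23 within A and −0.17 within B. *Tek* had 7.99 ± 4.17 and 8.10 ± 2.48 CPM and ratios of 0.33 and −0.15, and *Kdr* had 7.41 ± 3.31 and 6.04 ± 1.17 CPM and ratios of 0.042 and −0.50. All 3 receptors thus had a positive ratio in A and a negative one in B. With library totals in place of TMM factors the signs of *Tie1* (0.038), *Flt1* (0.085) and *Vwf* (0.051) turned, and that scaling moved the median log2 fold change of all genes tested from 0.0094 to 0.12.

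**Figure D4:**
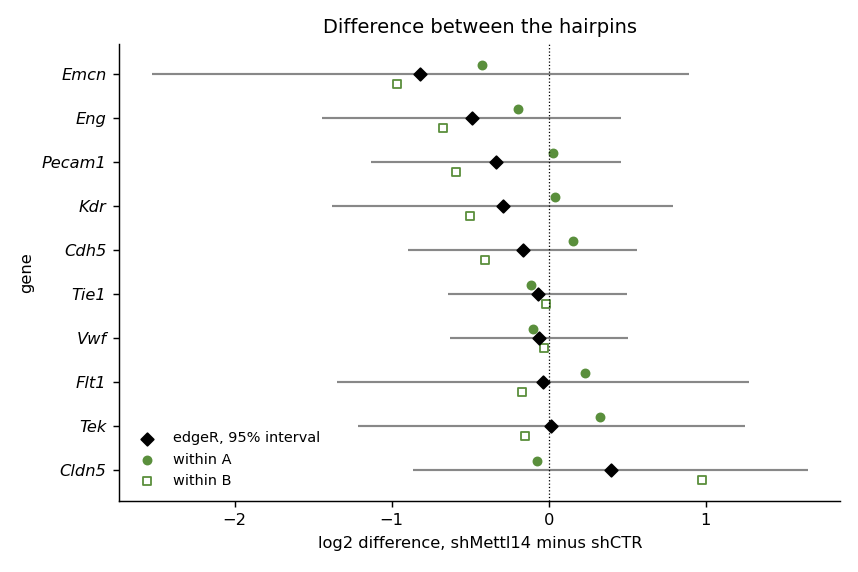
Log2 difference between shMettl14 and shCTR (x axis) for each member (y axis); diamonds with bars are the edgeR log2 fold change with its 95% interval, filled circles the ratio within A and open squares the ratio within B. All 10 intervals include 0, and *Emcn* has the lowest value at −0.82.

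Within the letters, 4 members were lower with shMettl14 in both A and B, *Emcn*, *Tie1*, *Vwf* and *Eng*, against 27.6% of the genes tested, and 0 were higher in both, against 30.0%. *Tie1* and *Vwf* left this count when library totals were used, with ratios of 0.12 and 0.11 within B. In A 5 members were lower and in B 9. On the log2 scale, the median hairpin difference over the members was −0.025 in A and −0.29 in B. Over all genes tested this median was 0.0027 in A and 0.022 in B. The ratio was lower within B than within A for 7 members, against 49.7% of the genes tested. No member had both shMettl14 libraries below both shCTR libraries, as 13.3% of the genes tested did, and no member had both above, as 14.7% did. The summed level was 93.5% of the shCTR level in A and 62.3% in B, and without *Emcn* it was 102% and 71.7%.

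Several log2 fold changes changed sign when 1 library was left out. Without shCTR B the log2 fold changes of *Emcn* (0.26), *Cdh5* (0.22), *Pecam1* (0.11), *Eng* (0.039), *Kdr* (0.25) and *Flt1* (0.72) were positive. Without shCTR A, *Tie1* (0.11) and *Tek* (−0.43) changed sign and 2 members, *Pecam1* and *Eng*, had an unadjusted p under 0.05 (0.035 and 0.021 from edgeR) with adjusted p of 0.69. Without shMettl14 A the signs of *Flt1* (0.33) and *Vwf* (0.027) turned, and without shMettl14 B those of *Tie1* (0.046) and *Tek* (−0.33). In these fits the groups hold different numbers of A and B libraries, so that the difference between the letters enters the fold change. The ratios within A of *Emcn* and *Eng*, which do not use shCTR B, were negative.

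The ligands of the members' receptors were expressed in the same cultures, with 10 of 12 genes at a mean of 1 CPM or more. *Vegfa*, the ligand of *Flt1* and *Kdr*, was at 236, 139, 219 and 153 CPM in shCTR A, shCTR B, shMettl14 A and shMettl14 B, higher in both A libraries. *Angpt2*, an angiopoietin that binds TIE2, was at 91.5, 93.9, 91.2 and 95.3 CPM. *Tgfb3* had a mean of 145 CPM, and 12.4% of its exon bases overlap other genes on the other strand. Of the 10 ligands tested, 0 had an adjusted p under 0.05 and 1 was lower at an unadjusted p under 0.05. This was *Tgfb1*, a ligand of the receptor complex that endoglin joins, with 64.8 and 60.9 CPM in the shCTR libraries and 41.0 and 39.6 CPM in the shMettl14 libraries. Both shMettl14 libraries were thus below both shCTR libraries, a pattern shown by 3 of the 10 ligands and by 13.3% of the genes tested. The opposite pattern was shown by 0 ligands, against 14.7%. Within the letters, 6 ligands were lower with shMettl14 in both and 1 was higher in both, against 27.6% and 30.0% of the genes tested. The log2 fold change of *Tgfb1* was −0.64 ± 0.19 (standard error), at an unadjusted p of 0.018 and an adjusted p of 1.0 from edgeR. The median log2 fold change was −0.15 over the ligands, −0.12 over the members and 0.0094 over all genes tested.

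All 12 receptor partners were tested and had a mean of 1 CPM or more, and 0 passed by adjusted or unadjusted p. *Ptprb* (VE-PTP, the phosphatase that acts on TIE2 and VE-cadherin) was at 254, 598, 317 and 491 CPM in shCTR A, shCTR B, shMettl14 A and shMettl14 B, with both B libraries above both A libraries. *Nrp1* (neuropilin 1, a VEGF co-receptor) and *Bmpr2*, a receptor for bone morphogenetic proteins, had means of 169 and 149.6 CPM. Of the list, 7 genes were higher in both B libraries and 4 in both A libraries, against 27.2% and 28.8% of all genes tested, and the median log2 fold change was −0.040.

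Of the 19 junction partners, all tested, 0 had an adjusted or unadjusted p under 0.05, with a median log2 fold change of 0.0040. *Ctnna1* (α-catenin, which ties cadherins to actin) was at 681, 1113, 479 and 643 CPM in shCTR A, shCTR B, shMettl14 A and shMettl14 B. Both shMettl14 libraries were thus below both shCTR libraries, as in 13.3% of the genes tested (log2 fold change −0.68, standard error 0.32, unadjusted p = 0.086 from edgeR). This pattern was shown by 5 of the 19 junction partners. The opposite pattern was shown by 1, against 14.7% of the genes tested. Within the letters, 7 partners were lower with shMettl14 in both and 2 were higher in both, against 27.6% and 30.0%. *Ctnnb1* (β-catenin) and *Vcl* (vinculin) had means of 715 and 484 CPM and log2 fold changes of 0.14 and 0.020. Of their exon bases, 14.6% and 25.5% overlap other genes on the other strand, where reads cannot be assigned unless the counting used strand. These partners are used by cells of many types.

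Of the 30 other endothelial genes, 27 had a mean of 1 CPM or more and 13 a mean of 100 CPM or more. The highest were *Mmrn2* (multimerin 2, an endothelial matrix protein) at 520.2 CPM, *Edn1* (endothelin 1) at 468 and *Cd34* at 467. Among the 28 tested, 0 had an adjusted p under 0.05, 17 had a negative log2 fold change and 11 a positive one, with a median of −0.11. Of all 18916 genes tested, 9230 had a negative log2 fold change and 9686 a positive one. At an unadjusted p under 0.05, 1 gene was lower, *Procr*, the endothelial protein C receptor, against 1.01% of the genes tested. *Procr* had 483 and 452 CPM in the shCTR libraries and 341 and 293 CPM in the shMettl14 libraries. The log2 fold change of *Procr* was −0.56 ± 0.20 (standard error), at an unadjusted p of 0.035 and an adjusted p of 1.0 from edgeR. *Procr* was lower in both letters, as were 7 of the 28 genes, and 7 were higher in both, near the 27.6% and 30.0% of all genes tested. Of the smooth muscle markers, 9 of 10 had a negative log2 fold change, against the same 9230 of all 18916 genes tested. *Acta2* was lower at an unadjusted p of 0.038 (log2 fold change −0.58, standard error 0.21, adjusted p = 1.0 from edgeR). It was the only 1 of the 10 lower at an unadjusted p under 0.05, against 1.01% of the genes tested. Whether the shares of smooth muscle and endothelial cells differed between the libraries was not tested.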

How the data were processed

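Poly-A–enriched, stranded libraries gave paired-end reads. STAR alignment to mm10 (GRCm38.p6) and featureCounts were used by the authors, whose deposited table holds raw, unnormalized counts by gene symbol. Tool versions, the strand setting and the treatment of reads with several places are not given in the sources used here. *Afdn* was found under its older symbol.

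CPM used TMM effective library sizes. Groups were compared over 18916 genes kept by filterByExpr with edgeR 4.0.16 in R 4.3.3 (robust quasi-likelihood fit, no block, Benjamini-Hochberg adjustment), which was tested on simulated data. Each standard error was derived from the fold change and its F statistic. Ratios within letters used a prior count of 2. Exon lengths and places came from GENCODE M21 and promoters from RefSeq, both on GRCm38. DESeq2 1.42.0, RLE and upper-quartile factors, library totals (added after the data were seen), other filters, a block and each library left out were alternatives. Lists are described by counts and medians. Outside the members, the rule names *Mettl14*, the 3 most abundant genes of each list, the defining *Ptprc* and *Itga2b*, and, in the ligand, partner and other endothelial lists, each gene with an unadjusted p under 0.05. The members and lists were chosen with earlier results of these data known. *Nos3*, *Myh11* and *Prox1* were named after their values were seen. Depth was alike in the 4 libraries.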

Additional observations from a re-analysis of the deposited data

How the results depend on the processing

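The number of members with an adjusted p under 0.05 was 0 under each of the 10 alternatives fixed for it. With no filter, a minimum of 10 counts in every library, RLE or upper-quartile factors, the counts of members and of genes passing were also 0. DESeq2 called 5 of all genes. The replicate block, a fit with the letter as a term, called 9 of all genes and 0 members. With this block 2 members passed an unadjusted threshold of 0.05. *Emcn* had a log2 fold change of −0.69 (unadjusted p of 0.0026 and adjusted p of 0.25 from edgeR) and *Eng* of −0.43 (unadjusted p of 0.029 and adjusted p of 0.44 from edgeR), and the sign of *Flt1* turned (0.031). *Mettl14* passed with an adjusted p of 0.0039 under the block and of 3.0e-07 with DESeq2. Deviations from the group means correlated at 0.578 between same-lettered libraries (across genes, which are not independent replicates), but there are only 2 pairs and the labels do not tie a letter to a shared source, so the pairing was kept as an alternative.

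With one library left out, where the lone library of a group is assumed to vary like the other group, 0 to 2 members had an unadjusted p under 0.05 and 0 to 1 of all genes an adjusted p under 0.05. The log2 fold changes then ranged from −1.5 to 0.26 for *Emcn*, −0.46 to 0.22 for *Cdh5*, −0.67 to 0.11 for *Pecam1*, −0.87 to 0.039 for *Eng*, −0.69 to 0.25 for *Kdr*, −0.53 to 0.72 for *Flt1*, −0.43 to 0.68 for *Tek*, −0.23 to 0.11 for *Tie1*, −0.15 to 0.027 for *Vwf* and 0.014 to 0.91 for *Cldn5*. Library totals turned the log2 fold changes of *Tie1* (0.038), *Flt1* (0.085) and *Vwf* (0.051) and the ratios within B of *Tie1* (0.12) and *Vwf* (0.11) and within A of *Cldn5* (0.0040). Of 110 fold changes of members recomputed, 94 kept their direction. The cause of these changes was not tested. Depth limits *Cldn5* most, which had between 62 and 149 counts.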
